A study of Caenorhabditis elegans with 2 samples.

Results

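The 8 sqv genes of Caenorhabditis elegans, sqv-1 to sqv-8, were examined as a named set of 8 among 19973 protein-coding genes of the nuclear chromosomes, for binding of the transcription factor LIN-1. Each gene was taken with a locus window that ran from 2 kb upstream of its start to its end in the Ensembl annotation of WBcel235, the assembly also called ce11. All 8 were found in the annotation. Chromatin immunoprecipitation followed by sequencing (ChIP-seq) had been done on whole L4 larvae of strain RW12212, which carries the allele st12212[lin-1::TY1::EGFP::3xFLAG], a CRISPR insertion of a GFP-bearing tag into lin-1 on chromosome IV. The worms were 48 hours old and had been synchronised by hatching them from bleached eggs and starving them at the L1 stage. The series holds 1 group of 2 biological replicates, and the control experiment that the labels name was not used here. Per the labels' description the tag was pulled down with an antibody to GFP, whereas the antibody field reads lin-1. Whole animals were used, so binding in a few cells and weak binding in many cells cannot be told apart.

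The sqv genes take their name from the squashed vulva of their mutants. Their products make the glycosaminoglycan chains of proteoglycans, and chondroitin chains are needed to open the lumen of the vulva and for the first divisions of the embryo. SQV-4, SQV-1 and SQV-7 make activated sugars or carry them into the Golgi. SQV-6, SQV-3, SQV-2 and SQV-8 then add, in that order, a xylose, a galactose, another galactose and a glucuronic acid to the core protein, the linker on which both chondroitin and heparan sulfate are built. SQV-5 extends the chondroitin chain. LIN-1 is a factor of the ETS family that acts downstream of Ras and ERK signalling in the patterning of the vulva, and ETS factors bind DNA around a GGAA core.

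In the conservative list, which was made from the alignments of both replicates, 3 of the 8 sqv genes had a peak summit in their locus window (37.5%, exact 95% binomial interval 8.52 to 75.5%). Of all protein-coding genes 10.1% had one. The interval covers counting error over genes only and includes that share. It is not a test of the set, because the genes were named with earlier results of these data known, not drawn at random. All 3 were genes of the sugar linker: sqv-3 with 2 peaks, sqv-2 with 1 and sqv-8 with 1. Another protein-coding gene had the nearer start for 3 of the 4 summits, all but the one at sqv-8. The fourth linker gene, sqv-6, had none, and neither had the 3 genes of sugar supply, sqv-1, sqv-4 and sqv-7, or the chondroitin synthase gene sqv-5. The windows of the 8 genes measured 51.4 kb in all, from 3.57 kb for sqv-3 to 16.5 kb for sqv-6, with a median of 4.35 kb against 4.03 kb for all protein-coding genes. They held 7.79 summits per 100 kb, from 4 summits, against 2.24 per 100 kb of the nuclear genome. The genome value also counts sequence outside gene windows, so the measures are not alike.

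The DNA under the 4 summits is given here because these windows carry the sites that the lists place at sqv genes. Each is the plus strand of WBcel235, 5′ to 3′, with 50 bp to each side of the summit, and capitals mark GGAA or its reverse complement.
sqv-3 upstream, chrIII:9780802-9780902: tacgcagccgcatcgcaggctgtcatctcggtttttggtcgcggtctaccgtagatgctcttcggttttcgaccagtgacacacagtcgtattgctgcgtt
sqv-3 far upstream, within vha-2, chrIII:9782202-9782302: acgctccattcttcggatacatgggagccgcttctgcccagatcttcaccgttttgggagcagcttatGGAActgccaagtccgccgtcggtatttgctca
sqv-2 last intron, chrII:2889352-2889452: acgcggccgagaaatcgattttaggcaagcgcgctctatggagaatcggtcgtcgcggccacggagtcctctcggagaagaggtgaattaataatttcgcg
sqv-8 upstream, chrII:9646304-9646404: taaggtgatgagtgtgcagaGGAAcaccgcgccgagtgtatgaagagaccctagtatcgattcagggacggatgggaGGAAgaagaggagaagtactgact

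The ETS core was in 2 of these 4 windows, at sqv-8 and at the site within vha-2, and the strongest of the 4, upstream of sqv-3, held none. Among all 2243 nuclear conservative summits, 58.2% of windows of that length held GGAA on either strand, against 63.2% of windows centred 500 bp to each side. Longer ETS words, which all contain GGAA, were in 0 of the 4 windows on either strand. Over all nuclear windows the word GGAAGT was in 4.32%, the word CCGGAA in 3.39% and the word CCGGAAGT, which holds both, in 0.178%. A match is a description of the letters and does not mark a bound site. The base composition of the 4 windows ran from 51.5 to 54.5% G and C, above the median of 45.5% over all nuclear windows.

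**Figure D1:**
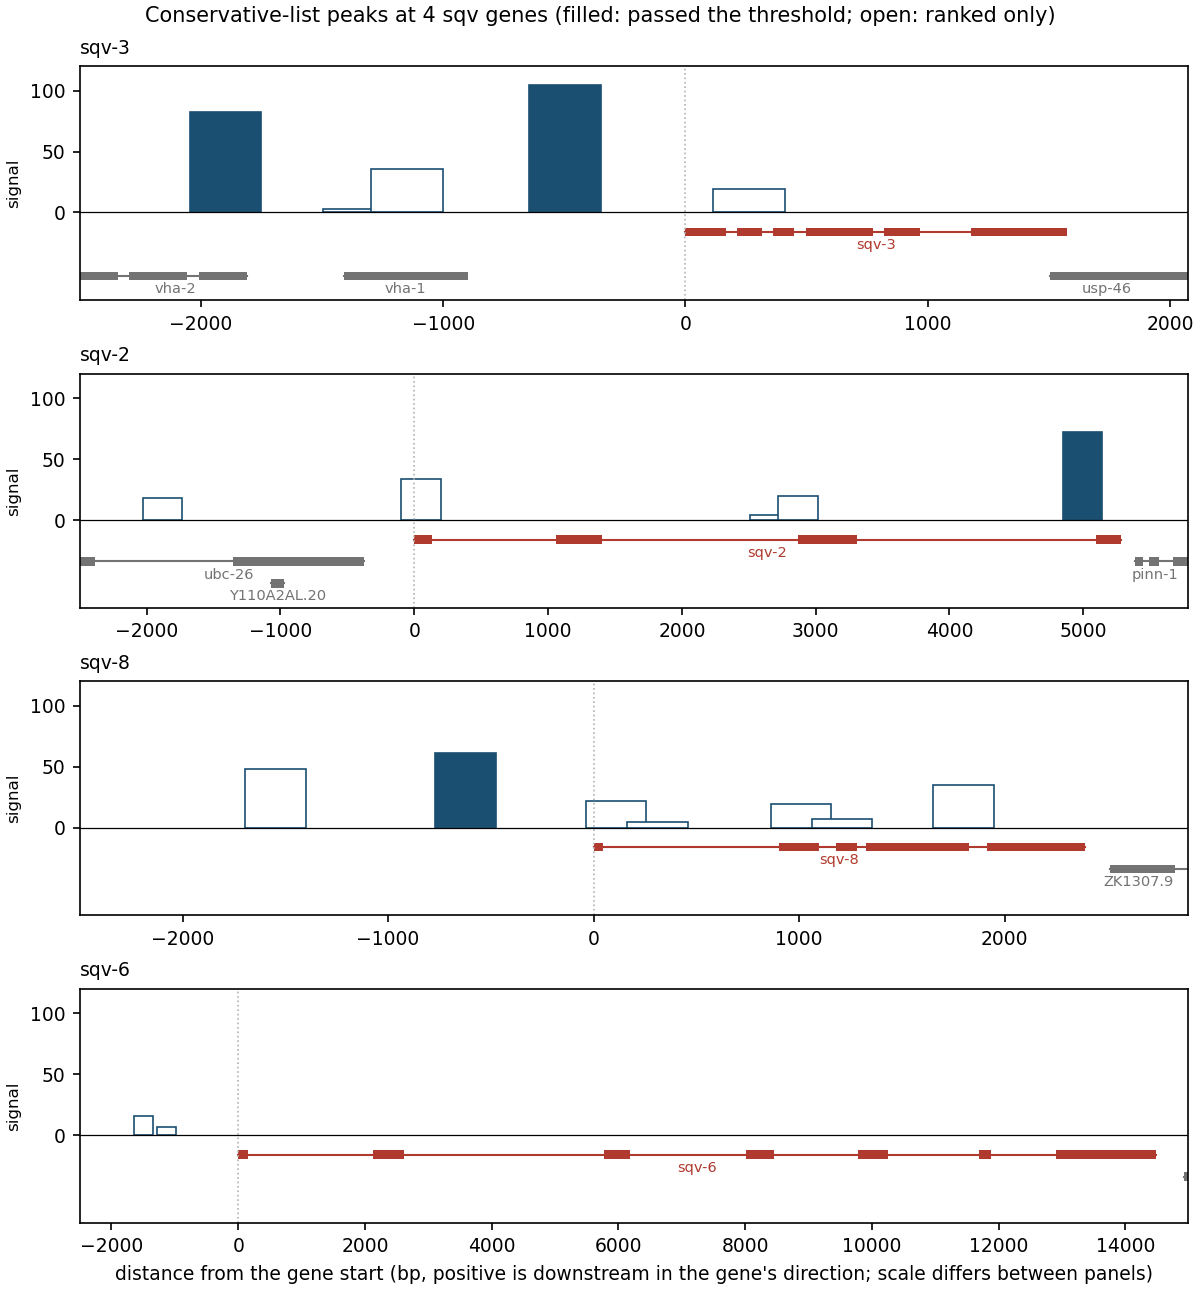
Peaks of the conservative comparison at the 4 linker genes, sqv-3, sqv-2, sqv-8 and sqv-6, plotted by distance in bp from the gene start (the scale differs between panels), with bar height as the authors' signal and bar width as peak width; filled bars passed the threshold and open bars were ranked only. Exons are the thick parts below, the sqv gene in red and its neighbours in grey. The filled bars lie at 498 and 1898 bp upstream of sqv-3, 4993 bp downstream of the sqv-2 start and 624 bp upstream of sqv-8, and sqv-6 has none.

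The strongest peak of the set lay upstream of sqv-3, which encodes the first galactosyltransferase of the linker (WBGene00005021, chromosome III, 9778782 to 9780354, minus strand). Signals are the authors' value per peak, on a scale that is not stated, with a median of 46.9 in replicate 1's own list, 50.8 in replicate 2's and 73.8 in the conservative list. The sqv-3 peak, at 9780704 to 9780999, reached 39.1 in replicate 1, 65.9 in replicate 2 and 104 in the conservative list, so it was below that median in replicate 1 and above it in replicate 2. It ranked 441 of 2243 nuclear conservative peaks and stood at an irreproducible discovery rate (IDR) of 6.01e-05. A lower IDR marks a peak less likely to be irreproducible between the lists compared, and 0.01 is the threshold of the lists. The peak was thresholded in both replicates' own lists and in the series list, a second list made from both replicates. The promoter is shared. The start of vha-1, a subunit gene of the vacuolar proton pump, lies 900 bp upstream of the sqv-3 start and points the other way. The summit was intergenic, 498 bp upstream of sqv-3 and 402 bp upstream of vha-1, so that it was nearer to vha-1.

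The other summit in the sqv-3 window lay at its far edge, 1898 bp upstream of the sqv-3 start. It fell in the coding sequence of vha-2, another proton pump subunit gene, 88 bp downstream of the vha-2 start, and also in the promoter window of R10E11.6. A promoter window here is 1000 bp upstream to 200 bp downstream of a gene start. The peak, at 9782104 to 9782399, reached 48.0 in replicate 1, 40.6 in replicate 2 and 82.1 in the conservative list. In replicate 1 it was the higher of the 2 sqv-3 peaks and in replicate 2 the lower, so the order of the pair differed between replicates.

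The sqv-2 peak was not at the sqv-2 promoter. The gene encodes the second galactosyltransferase (WBGene00005020, chromosome II, 2889116 to 2894395, minus strand), and the summit, 4993 bp downstream of its start, fell in intron 3 of 3 of its only annotated transcript. The peak, at 2889254 to 2889549, reached 23.8 in replicate 1, 42.8 in replicate 2 and 72.5 in the conservative list. It passed the threshold in replicate 2's own list (IDR 0.00524) and not in replicate 1's (IDR 0.129). The nearest gene start was that of pinn-1, a peptidyl-prolyl isomerase gene on the same strand, 395 bp away, and the summit lay in the pinn-1 promoter window. At the sqv-2 start itself the conservative comparison ranked a peak with a signal of 33.9, 49 bp downstream, at an IDR of 0.195, which did not pass. Upstream of sqv-2 lies ubc-26 on the same strand, 375 bp away, and the snoRNA gene Y110A2AL.20 within it starts 1071 bp upstream of sqv-2.

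The sqv-8 peak was the only one of the 4 for which a sqv gene had the nearest start. The gene encodes the glucuronyltransferase that completes the linker (WBGene00005026, chromosome II, 9646978 to 9649367, plus strand). Its peak, at 9646206 to 9646501, reached 31.4 in replicate 1 and 30.9 in replicate 2, the closest pair among the 4 peaks, and 60.9 in the conservative list. It was intergenic, 624 bp upstream of the start, and the next start, that of fzr-1 on the other strand, was 1888 bp from the summit, so this promoter was not shared. Its IDR was 0.00303 in the conservative comparison and 0.0204 in that of the series list, so it passed the threshold of 0.01 in the conservative comparison and not in the other. It passed in neither replicate's own list, with IDRs of 0.0222 and 0.0314. A second annotated transcript of sqv-8 begins 900 bp downstream of the gene start. Measured from that start, the summit lay outside the promoter window, and 1 sqv gene in place of 2 had a promoter summit.

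Across the 4 peaks the order by replicate 1 was the vha-2 site, the sqv-3 promoter, sqv-8 and sqv-2, and by replicate 2 the sqv-3 promoter, sqv-2, the vha-2 site and sqv-8. The values of replicate 1 and replicate 2 at sqv-2, 23.8 and 42.8, spanned both values at sqv-8 and the lower value at each of the sqv-3 peaks. Both sqv-3 peaks lay above both sqv-8 values, without overlap, while the 2 sqv-3 peaks overlapped each other. Replicate 2 was the higher at 2 of the 4 peaks, and at 65.4% of 2192 nuclear conservative peaks with a ranked peak in both replicates, where the median ratio of replicate 2 to replicate 1 was 1.14. The read depth of the replicates is unknown.

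**Figure D2:**
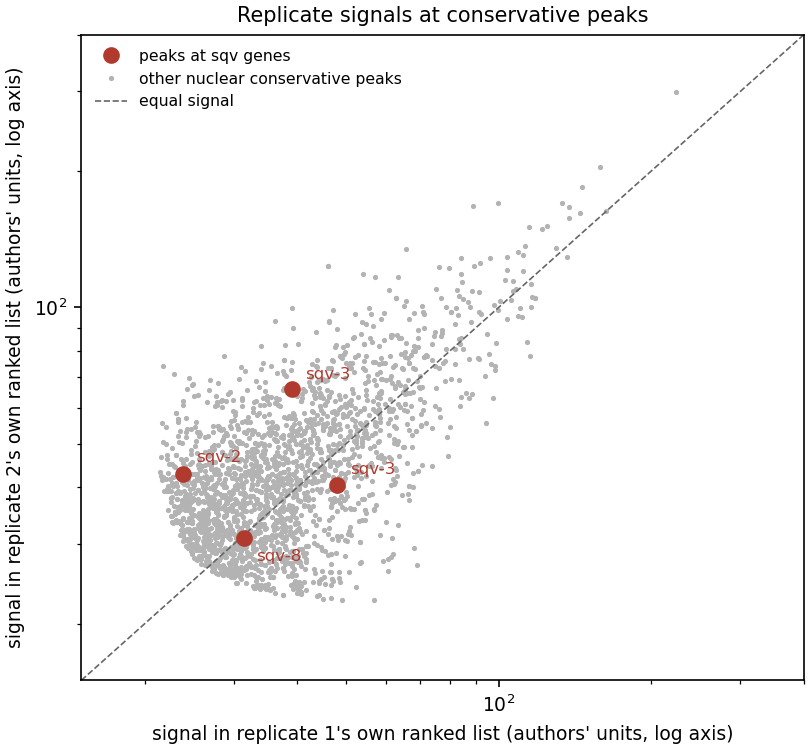
Signal of each conservative nuclear peak in replicate 1's own ranked list (x axis) and replicate 2's (y axis), both in the authors' units on log axes; red points are the 4 peaks at sqv genes, grey points all others, and the dashed line marks equal signal. The sqv-8 point lies on the line, with 31.4 and 30.9, and 1 of the 2 sqv-3 points lies above it, with 39.1 and 65.9.

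By promoter window, 2 of 8 sqv genes had a conservative summit, sqv-3 and sqv-8, against 5.25% of all protein-coding genes. Both stood within the 1049 genes that had one: sqv-3, tied with vha-1 through the same peak, ranked 245, and sqv-8 ranked 878. Next above sqv-3 were twf-2 and C04C11.25, with signals of 105 each, and next below were rsp-1 and rsp-2, both splicing factor genes, which share a peak of 104. The replicate values of these neighbours overlapped those of sqv-3, with 33.7 in replicate 1 and 66.7 in replicate 2 at twf-2, and 66.6 and 37.5 at rsp-1. Around sqv-8, C16A11.3, F17C11.12, the translation initiation factor gene eif-3.B and F08F3.4 had signals of 60.9 to 61.0. With 1 condition there is no pattern across samples by which genes could be likened further.

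The list used changed the count. The series list held summits at 2 of 8 sqv genes, sqv-2 and sqv-3, against 10.3% of all protein-coding genes. Replicate 1's own list held 1, sqv-3, against 5.20%, and replicate 2's own list held 2, sqv-2 and sqv-3, against 6.57%. Only sqv-3 was in all 4 lists, and both of its peaks were. Among the 2267 peaks of the conservative list, 30.9% overlapped a peak of each replicate's own list by 1 bp or more. By a stricter rule, 16.1% had no peak with the same edges and summit in the series list.

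For the 5 sqv genes without a thresholded peak, the ranked lists, which also hold weak peaks, gave values. At sqv-4, which encodes the UDP-glucose dehydrogenase that makes UDP-glucuronic acid, no peak was ranked in replicate 2. The highest signal in replicate 1 was 19.4, at position 1778 relative to the start. In the conservative comparison the highest was 29.1 at another place, position -621. Near that place replicate 1 had a peak of 12.5, at position -657. At sqv-1, the decarboxylase gene that turns this sugar into UDP-xylose, the highest signals were 11.4 in replicate 1 and 18.4 in replicate 2, at different places, positions 1011 and -26 relative to the start. At sqv-7, the gene of the Golgi sugar transporter, they were 15.4 and 11.8, again at different places. None of these peaks had an IDR near the threshold; in the conservative comparison the best peak of each stood at 0.819.

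At sqv-5, the chondroitin synthase gene, the highest signals were 16.3 in replicate 1, at position 3201, and 21.1 in replicate 2, at position -572. The conservative comparison ranked 30.6 at position -637 with an IDR of 0.596. The xylosyltransferase gene sqv-6, which starts the linker, was the lowest of the set, with no ranked peak in replicate 2. It had 9.72 in replicate 1, at position 11694, and 15.6 in the conservative comparison, at position -1489, so at different places. It is also the longest of the 8 genes, with 14484 bp between 950306 and 964789 on chromosome V. Its window held 1.21 ranked peaks per 10 kb, against a median of 4.33 over all protein-coding genes, and 4.64 to 15.9 at the other sqv genes. The nearest conservative summit lay 187 kb from its start, a distance exceeded by 0.686% of protein-coding genes.

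**Figure D3:**
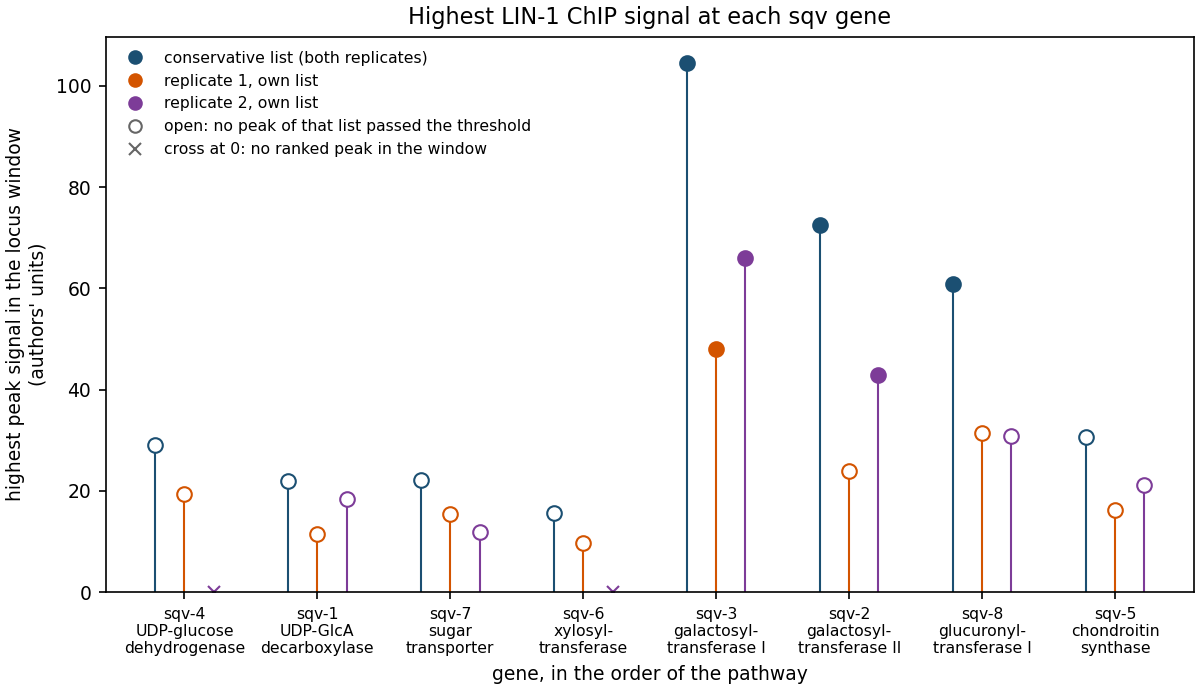
Highest peak signal in the locus window of each sqv gene (y axis, authors' units), genes in the order of the pathway from sugar supply to chain extension, in the conservative comparison (blue), replicate 1 (orange) and replicate 2 (purple); filled points passed that list's threshold, open points did not, and a cross at 0 marks no ranked peak. The 3 filled blue points are sqv-3 at 104, sqv-2 at 72.5 and sqv-8 at 60.9, and all other blue points lie at 30.6 or below. The points of a gene may come from different peaks: at sqv-3 that of replicate 1 is the site within vha-2.

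Set among all protein-coding genes by their highest ranked signal in the locus window, the 8 genes spread over most of the range. At sqv-3 the value exceeded that of 97.6% of genes, at sqv-2 93.9% and at sqv-8 91.1%. The value of sqv-5 exceeded 64.6%, sqv-4 61.0%, sqv-7 43.2%, sqv-1 42.6% and sqv-6 32.7%. All 8 had a ranked peak in the window, as did 70.4% of protein-coding genes, and their median highest signal of 29.8 was close to the 30.7 of all genes with one. Locus windows differ in length. In the promoter window, which is equally long for every gene, sqv-3 exceeded 98.8% of genes and sqv-8 95.3%, and sqv-1, sqv-6 and sqv-7 had no ranked peak in the conservative comparison. That left 5 of 8 sqv genes with one, against 44.6% of all protein-coding genes. From the start of a sqv gene to the nearest conservative summit the median distance was 9.46 kb, against 20.1 kb for all protein-coding genes, and it ran from 0.498 kb at sqv-3 to 187 kb at sqv-6.

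**Figure D4:**
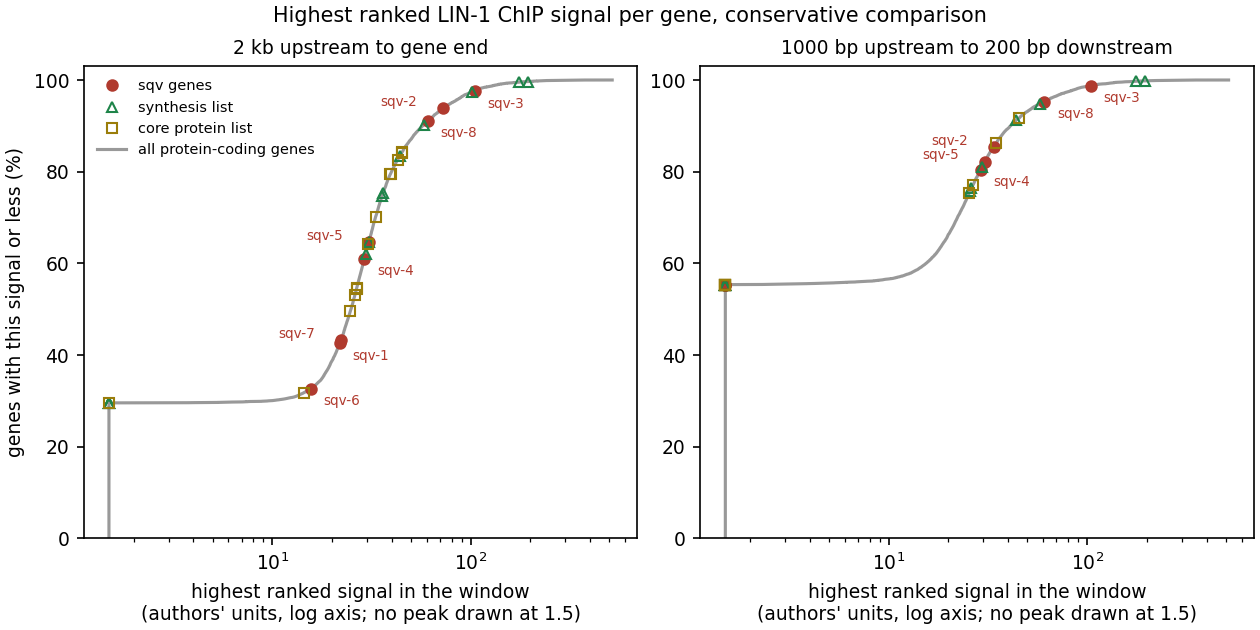
Cumulative percentage of protein-coding genes (y axis) by highest ranked signal of the conservative comparison (x axis, authors' units, log axis) in the locus window (left) and the promoter window (right); red points are sqv genes, green triangles other glycosaminoglycan synthesis genes and yellow squares proteoglycan core protein genes, with genes without a peak drawn at 1.5. The sqv genes run from 32.7% at sqv-6 to 97.6% at sqv-3 in the left panel.

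Promoter sharing differed among the 8. Besides sqv-3 with vha-1, the vha-2 start lies 1810 bp upstream of sqv-3 and points away, so the promoter windows of sqv-3 and vha-2 overlap. Neither sqv-3 summit lay in both of these windows. Likewise sqv-1 faced D2096.5, whose start lies 1351 bp upstream and points away, so their promoter windows overlap. No conservative summit lay in either sqv-1 window. For sqv-2 and sqv-7 the upstream neighbour was on the same strand and ended 375 bp (ubc-26) and 87 bp (lst-6) before the start, so that most of the 2 kb upstream of sqv-7 was lst-6 sequence. The nearest upstream genes of sqv-8, sqv-4, sqv-5 and sqv-6 pointed away, with starts 2512, 6117, 9503 and 17792 bp upstream, and none of these 4 promoters was shared with an upstream neighbour. T24D1.7, on the same strand as sqv-5, starts 305 bp downstream of the sqv-5 start, so its promoter window overlaps that of sqv-5. Over all nuclear conservative summits in promoter windows, 22.7% lay in the windows of 2 or more genes. Another protein-coding gene had the nearer start for 3 of the 4 summits at sqv genes, against 35.0% of all 2491 pairs of a gene and a summit in its locus window.

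Other genes of the pathway were read from a pair of lists. Of 13 further genes that build or modify the chains, 4 had a conservative summit in the locus window, or 30.8% (exact interval 9.09 to 61.4%), against 10.1% of all protein-coding genes. The interval, again not a test, includes that share. With each summit given to the nearest start only, 1 of the 13 had one, near the 6.85% of all protein-coding genes. The highest of the 4 was rib-2, a heparan sulfate chain synthesis gene. It had 82.6 in replicate 1, 109 in replicate 2 and 195 in the conservative list, 193 bp upstream of its start. It shares that promoter with tbb-1, a tubulin gene whose start was 185 bp from the summit. A further rib-2 summit, of 89.7, lay where the 3′ ends of rib-2 and of ran-1 overlap. The chondroitin sulfotransferase gene chst-1 had 95.5 and 78.8 in replicates 1 and 2 and 175 in the conservative list, 366 bp upstream of its start and 67 bp from the start of the snoRNA gene C41C4.11. The chst-1 promoter is shared with C41C4.9, a protein-coding gene whose start was nearer to the summit, at 308 bp. The sulfate donor transporter gene pst-2 had 47.1 and 55.5, and 101.1 in the conservative list, at 1302 bp upstream. That summit lay between rps-12, a ribosomal protein gene 167 bp away, and ska-3, 126 bp away. The sulfotransferase gene hst-6 had 23.0 and 35.0, in neither replicate's own list, and 58.0 in the conservative list, at 95 bp upstream and 15 bp from the start of the non-coding RNA gene Y34B4A.15. The hst-6 summit also fell in the 5′ untranslated region of rga-8. Another protein-coding gene had the nearer start for 4 of the 5 summits at these synthesis genes.

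The genes without a summit in that list were mig-22, which encodes the partner of SQV-5 in chain extension, rib-1, hse-5, hst-1, hst-2, hst-3.1, hst-3.2, pst-1 and pps-1. Of 13 proteoglycan core protein genes found in the annotation, among them the syndecan gene sdn-1, the glypican genes gpn-1 and lon-2, the perlecan gene unc-52 and the chondroitin proteoglycan genes cpg-1 and cpg-2, 0 had a summit in the locus window, against 10.1% of all protein-coding genes. The exact interval, again not a test, leaves room for a share of up to 24.7% and so includes that of all genes. Nearest to having a summit was cpg-2, which overlapped a peak of 63.1 whose summit lay outside its window.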

How the data were processed

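Peak lists of LIN-1 ChIP-seq from whole L4 larvae were used, 1 group with 2 replicates. They are on ce11, per the labels. Each replicate has a thresholded and a ranked list, and both replicates enter the conservative and the series lists, per the notes deposited with the files. For aligner and peak caller: not given in the sources used here. The signal is the authors' value per peak, deposited with no stated scale. The −log10 of the global IDR was deposited in the ranked lists. Every thresholded peak was found in its ranked list at an IDR of 0.01 or less. Read depth is unknown. The number of peaks was 1079 and 1348 in the replicates' own lists, 2267 in the conservative and 2329 in the series list. These numbers do not measure depth, and precision can be judged only from the IDR of each peak and the agreement of the replicates.

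Computed from these were summits (start plus peak offset, 1-based) in locus and promoter windows, ranks among 19973 genes, exact binomial intervals (SciPy 1.17.1, Python 3.11.15) and word counts within 50 bp of summits. The windows were tested on simulated data. Replicate values are the highest signal of the replicate's own ranked peaks that overlap a conservative peak by 1 bp or more, or that have their summit in the window. With 1 group and no control list, no contrast was tested. Sequences and annotation are those of WBcel235 (RefSeq sequence, Ensembl genes).

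Members and lists were chosen with earlier results of these data known. The rule for named genes takes the 8 members, genes that share their summits or start within 2 kb, list genes with a summit, and the 2 genes next above and below a member by promoter signal. Upstream neighbours of members and list genes without a summit are also named, outside the rule and after their values were seen. The core protein list had 15 names, of which 13 matched. Alternatives were other lists, IDR, overlap, windows, repeats, nearest start and transcript start.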

Additional observations from a re-analysis of the deposited data

How the results depend on the processing

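The count of sqv genes with a locus summit, 3 in the conservative list, was 1 at a global IDR of 0.001 or less (sqv-3), 1 with each summit given to the nearest start only (sqv-8; 6.85% of all protein-coding genes) and 1 among peaks in both replicates' own lists (sqv-3), and ran from 1 to 2 when either replicate was left out. It stayed at 3 with 1 kb upstream (7.97% of all protein-coding genes), 5 kb upstream (14.9%), overlap in place of the summit (10.8%) and without the repeated peaks (10.1%), and was 2 in the series list (10.3%). The promoter count of 2 was 1 in the series list (5.51% of all genes), at the stricter IDR, by nearest start (4.21%), among peaks in both own lists, with either replicate left out and, an alternative chosen after seeing the data, from the most downstream transcript start (4.82%). Over all protein-coding genes the locus share of 10.1% was 5.68% at the stricter IDR and 3.44% among peaks in both own lists, and 5.20 to 6.57% with a replicate left out; the promoter share of 5.25% was 2.95%, 1.79% and 2.65 to 3.43%. By nearest start the synthesis list had 1 of 13, a share near the 6.85% of all genes, and by overlap the core protein list had 1 of 13, near the 10.8% of all genes. GGAA was within 25 bp of 1 of the 4 summits, within 50 bp of 2 and within 100 bp of 3, against 34.3%, 58.2% and 82.9% of all nuclear summits. With a replicate left out the highest sqv-3 signal was 48.0 in replicate 1, at the vha-2 site, and 65.9 in replicate 2, at the sqv-3 promoter, which are different peaks. The highest sqv-2 signal was 42.8, in replicate 2. These values are on the scale of a single replicate. No value could be had for sqv-8 in the series list, in either own list, at the stricter IDR or among peaks in both own lists, nor for sqv-2 in replicate 1's own list, at the stricter IDR, by nearest start or among peaks in both own lists, nor for sqv-3 by nearest start. The cause was not tested. No paired analysis was possible because the series has 1 group. The lists give no read depth, and a weak peak may be missing from a list for lack of reads.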

Other observations

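The sqv-2 and pst-2 summits shared a long identical word, noticed after their sequences had been seen. Among all pairs of a sqv window with another sqv or synthesis list window, the longest shared word was 16 bases, and the next longest was 9. The 16 bases are in capitals in these windows, 50 bp to each side of the summit, on the plus strand of WBcel235, 5′ to 3′.
sqv-2 last intron, chrII:2889352-2889452: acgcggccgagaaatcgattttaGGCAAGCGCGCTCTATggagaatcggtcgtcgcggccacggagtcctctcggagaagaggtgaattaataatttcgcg
pst-2 upstream, chrIII:5679081-5679181: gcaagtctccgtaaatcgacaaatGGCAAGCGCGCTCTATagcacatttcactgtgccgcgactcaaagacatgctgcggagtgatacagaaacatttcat

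The middle of the word lay 19 bp from the sqv-2 summit and 18 bp from the pst-2 summit. It has 8 places in the nuclear genome, of which 2 were within 50 bp of a conservative summit, these same 2. The word was taken from these 2 windows, so those 2 places were fixed in advance, and both windows enter the counts of its parts. It was in 0.025% of protein-coding promoter windows. Of its 9 parts of 8 bases the most frequent, picked for that reason, was GCGCTCTA, in 44 of 2243 nuclear summit windows (1.96%), against 0.134% of windows 500 bp to each side. The other 8 parts were in 0.580 to 1.07% of summit windows and in 0.0446 to 0.357% of those to each side. Of those 44 summits, 22 lay within 200 bp of a tRNA gene and 22 did not. Of all nuclear conservative summits 11.5% lay within that distance of a tRNA gene. The reverse complement, TAGAGCGC, was within 35 of 612 nuclear tRNA genes (5.72%). No tRNA gene lay in the locus window of any sqv gene, and the one nearest in start to sqv-2 was 32764 bp away. The start of the B box of tRNA genes, searched as GGTTCGA on either strand, was in 0 of the 4 sqv windows and in 4.77% of all nuclear summit windows. Whether the word bears on the signal was not tested.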
